A study of Homo sapiens with 34 samples.

Results

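The libraries described here are the 4 that compare MPS-DE(b) with DE(a)-DE(b), out of 34 in the series, and were chosen by condition label alone. All were bulk RNA-sequencing libraries of ESI017, an established human embryonic stem cell line, differentiated in culture for 48 h, with 2 libraries in each condition. Both conditions received the same medium on day 2, named DE(b), which held 100 ng/ml activin and 250 nM LDN-193189, an inhibitor of BMP type I receptors. They differed in the medium of day 1. DE(a)-DE(b) is the standard definitive endoderm (DE) protocol, with 100 ng/ml activin and 2 µM CHIR99021, a GSK3 inhibitor that activates Wnt signaling. In MPS-DE(b), day 1 was a mid primitive streak (MPS) induction, for which the medium held BMP4 at 40 ng/ml and CHIR99021 at 6 µM, with a lower dose of activin (30 ng/ml) and added bFGF (20 ng/ml). Because 4 components differed at once, the share of each cannot be told apart in this comparison. The question was how far cells that had been brought to the mid streak on day 1 resembled standard endoderm after a day in endoderm medium. The cells collected at 24 h, before the medium was changed, served as a second comparison. APS-DE(b), whose anterior streak (APS) day 1 medium had CHIR99021 at 4 µM and the activin and bFGF of MPS without BMP4, and PPS-DE(b), whose posterior streak (PPS) day 1 medium was that of MPS without activin, were the nearest other conditions, and both had DE(b) medium on day 2.

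The primitive streak is the strip of the embryo through which epiblast cells leave the epithelium to form mesoderm and endoderm. Activin, acting as a substitute for Nodal, favors anterior streak and endoderm, whereas BMP and Wnt favor posterior streak and mesoderm. HOX genes are switched on in posterior streak in the order of their position in the cluster, and cells that leave the streak lose E-cadherin and the tight junction program of the epithelium to varying degrees.

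Library totals over the whole series ran from 15522780 to 23439799 estimated counts, and the 4 libraries here held 15522780 to 20308179. Values below are counts scaled to a library total of 1000000 (CPM), which are not corrected for gene length, so levels are compared between libraries and never between genes. Mitochondrial genes took 9.28% of the counts in DE(a)-DE(b) replicate 2, against 4.77% in replicate 1 of that condition and 4.94% and 4.4% in MPS-DE(b). Among genes at 10 CPM or more, 2.97% differed at least 2-fold between the DE(a)-DE(b) replicates and 0.743% between the MPS-DE(b) replicates. Whether this difference between libraries plays a part in the results was not tested. With 1 of the 4 libraries left out, 46.1% to 61.9% of the 1000 genes called below were called again. In bulk RNA, fewer cells that express a gene and less RNA per cell cannot be told apart.

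SOX17, FOXA2 and the cadherin genes, which the study itself reported for these conditions, were looked at first. SOX17, the endoderm transcription factor, was at 330 and 440 CPM in DE(a)-DE(b) and at 391 and 553 CPM in MPS-DE(b). FOXA2 was at 86.0 and 125 CPM in DE(a)-DE(b) and at 17.1 and 37.8 CPM in MPS-DE(b), without overlap. Its log2 fold change of -1.94 ± 0.83 (SE) did not pass the test (edgeR adjusted p = 0.226). It passed when no filter on low counts was applied (edgeR adjusted p = 1.24e-09), and under no other setting tried. Absence of overlap between the libraries of the 2 conditions was common, at 7624 of the 17895 genes tested (42.6%). CDH1 (E-cadherin) fell from 116 and 83.4 CPM to 19.1 and 13.3 CPM, whereas CDH2 (N-cadherin) was at 816 and 802 CPM and at 698 and 715 CPM (log2 fold change -0.19, adjusted p = 0.597).

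Across 17895 genes tested with edgeR's quasi-likelihood test, 1000 (5.59%) passed an adjusted p of 0.05, of which 460 (2.57%) were higher and 540 (3.02%) lower in MPS-DE(b). Of these, 732 differed at least 2-fold, 319 upward and 413 downward. The largest rises belonged to genes of posterior identity and of mesoderm (HOXB2, HOXB3, HOXB6, HOXB8, HOXB9, HAND1, MSX1), to matrix genes (HAPLN1, LUM) and to the glycophorins GYPB and GYPE. RSPO3, a secreted enhancer of Wnt signaling, STAB2, a hyaluronan receptor, and GREB1L were also among the largest rises. The largest falls included the epithelial genes CLDN7, ST14, GRHL2 and ESRP1, the epithelial sodium channel subunit SCNN1A, the bradykinin receptor BDKRB2, and the pluripotency factor NANOG.

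**Figure D1:**
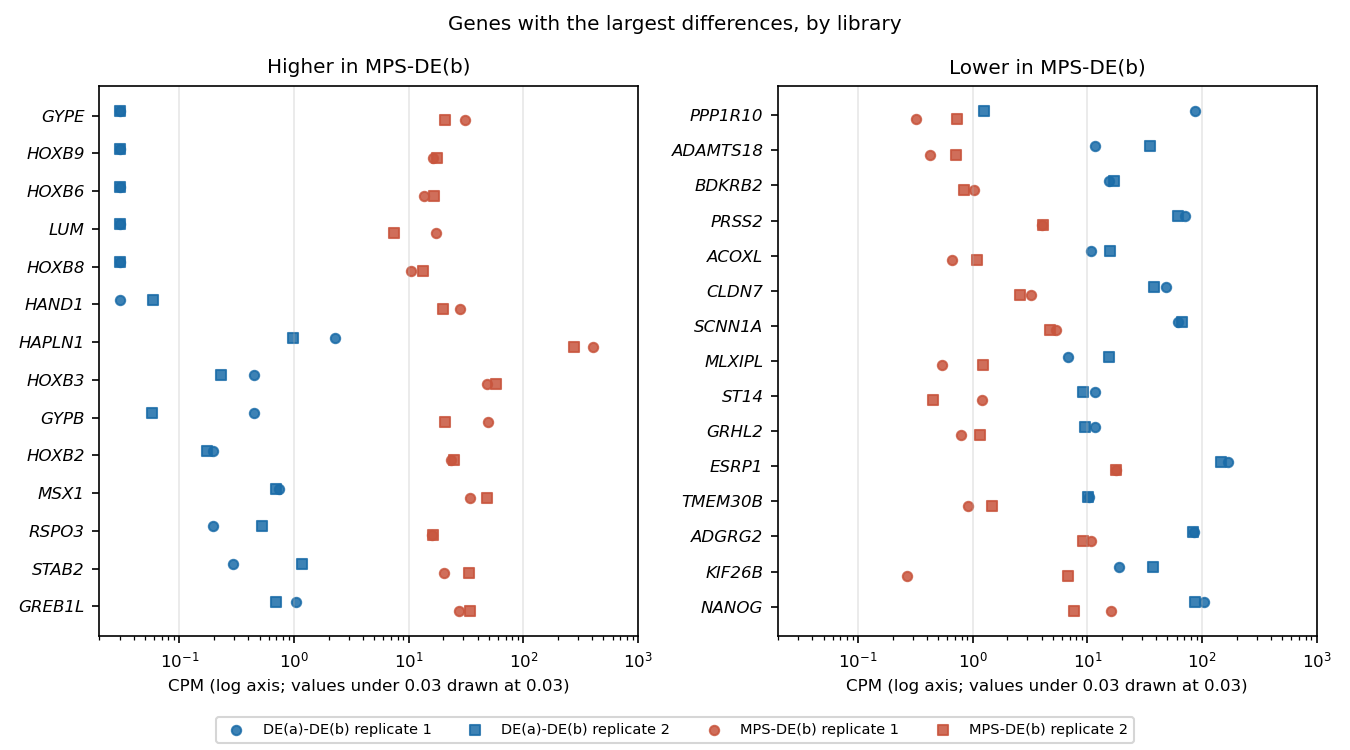
CPM (log axis) in each of the 4 libraries for 14 of the most increased genes and the 15 most decreased, as circles for replicate 1 and squares for replicate 2, blue for DE(a)-DE(b) and red for MPS-DE(b), with values under 0.03 drawn at 0.03. GYPE, HOXB9, HOXB6, LUM and HOXB8 had no read in DE(a)-DE(b), and PPP1R10 is the gene whose blue points lie farthest apart, at 86.5 and 1.26 CPM.

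PPP1R10 headed the falls with 86.5 and 1.26 CPM in DE(a)-DE(b) and 0.317 and 0.726 CPM in MPS-DE(b). The annotation lists this gene under 3 identifiers, among which the reads of identical sequence are divided. Summed over the 3, the gene was at 89.0 and 90.7 CPM in DE(a)-DE(b) and at 93.1 and 103 CPM in MPS-DE(b), with a log2 fold change of 0.14 (adjusted p = 0.777), so the fall of the single identifier is not one of the gene. PRSS2 and KIF26B also have several identifiers, and both remained lower when summed, at -3.92 and -2.42 on the log2 scale. For KIF26B, the call on the single identifier was lost without DE(a)-DE(b) replicate 2 (-2.44) and without MPS-DE(b) replicate 1 (-2.05). For MLXIPL, a glucose-responsive transcription factor at 6.77 and 15.3 CPM against 0.542 and 1.22 CPM, it was lost without MPS-DE(b) replicate 1 (-3.15).

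Epithelial genes had the largest share of calls among the 33 lists. Of 31 genes for junctions, polarity and keratins, 18 (58.1%) fell and 0 rose, with a median log2 fold change of -1.36, where the median over all genes tested was 0.00. The members that fell cover several layers of the epithelial program, namely cadherins (CDH1, CDH3), claudins and other tight junction proteins (CLDN6, CLDN7, OCLN, MARVELD3, F11R), polarity proteins (CRB3, PATJ), the desmosome protein PKP2, the adhesion molecule EPCAM, the splicing regulators ESRP1 and ESRP2, the transcription factor GRHL2, the trafficking protein RAB25, the membrane protease ST14 and its inhibitors SPINT1 and SPINT2. CRB3, an anchor of the apical polarity complex, was at 7.58 and 11.8 CPM in DE(a)-DE(b) and at 0.542 and 0.515 CPM in MPS-DE(b). CLDN7, a claudin of the lateral membrane, was at 48.9 and 37.8 CPM against 3.21 and 2.60 CPM. The log2 fold changes of CRB3 and CLDN7 were -4.18 ± 0.61 (SE) and -3.90 ± 0.33 (adjusted p = 0.000116 and 2.31e-07). The conditions did not overlap for either gene, as for 42.6% of all genes tested, and naming CLDN7 among the largest falls required it.

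Promoters of this list are shown for the CAGGTG motif, the E-box bound by the ZEB and SNAIL repressors, because ZEB1 and ZEB2 changed in the same comparison (below). The letters CAGGTG on either strand, which read CACCTG on the other, are in capitals. The sequences are from RefSeq on GRCh38.p14, from the strand of the gene. The 250 bases before the RAB25 start (chr1:156060910-156061159, plus strand) meet no annotated exon and hold 1 copy. For CLDN7 (chr17:7262482-7262511, minus strand) and CRB3 (chr19:6464039-6464068, plus strand) a 30-base stretch with 2 copies is shown, and it meets an annotated exon in each gene.
RAB25: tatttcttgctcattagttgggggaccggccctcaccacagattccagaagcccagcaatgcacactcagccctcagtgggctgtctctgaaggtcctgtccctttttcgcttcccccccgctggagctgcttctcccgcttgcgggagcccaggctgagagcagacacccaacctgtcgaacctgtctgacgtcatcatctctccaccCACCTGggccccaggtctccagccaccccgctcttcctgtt
CLDN7: ccctacatatactCAGGTGcgcccCACCTG
CRB3: aatgCAGGTGtaaggtccccctcaCACCTG

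Of the windows of 250 bases before the start, 1 of CLDN7 held 4 copies and another 0, and that of CRB3 held 5. The CLDN7 stretch shown is from the window with 4. At least 4 copies stood in 43 of the 35116 windows (0.122%). At least 1 copy stood in 6143 windows (17.5%). A window was found for 17 of the 31 epithelial genes. Of the 18 genes that fell, 7 had a window, and 7 of their 10 windows held the motif. Of the 13 not called, 10 had a window, and 4 of their 15 windows held it. Whether the falls depend on the motif was not tested. A match is a description of letters, and binding was not measured.

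RAB25, a GTPase of apical recycling, was at 11.8 and 7.67 CPM in standard endoderm and at 2.41 and 1.48 CPM in MPS-DE(b) (log2 fold change -2.31 ± 0.37). ESRP1, which directs epithelial splicing, was at 169 and 147 CPM against 17.7 and 17.8 CPM (-3.15 ± 0.28, adjusted p = 3.89e-07). CDH3 (P-cadherin) was at 115 and 99.6 CPM against 18.7 and 14.0 CPM (-2.71 ± 0.21, adjusted p = 5.11e-08). In each of these the conditions did not overlap, as for 42.6% of all genes tested, and naming ESRP1 among the largest falls required it. EPCAM fell from 174 and 159 CPM to 34.4 and 34 CPM (-2.28 ± 0.27). GRHL2 fell by 3.43 and ST14 by 3.62 on the log2 scale. The calls of ESRP2 (log2 -1.88) and PKP2 were lost without MPS-DE(b) replicate 1, and those of OCLN and F11R without any 1 of 3 libraries, with log2 fold changes of -1.39 to -1.03 for OCLN and -0.80 to -0.52 for F11R.

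The decline did not extend to the whole list. The simple epithelial keratins KRT8, KRT18 and KRT19 were not called, with log2 fold changes of -0.15 ± 0.30, -0.21 ± 0.32 and -0.50 ± 0.30. KRT8 stood at 1296 and 1335 CPM in DE(a)-DE(b) and at 1124 and 1238 CPM in MPS-DE(b). The desmosome linker DSP (-0.23), the scaffold TJP1 (ZO-1, -0.30) and CLDN4 (0.07) were not called either. When reads were summed over identifiers, a further member, MARVELD2, was called lower (-1.0, adjusted p = 0.00788).

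Of 20 genes for factors and effectors of epithelial-mesenchymal transition (EMT), 6 rose and 0 fell (median log2 fold change 0.62). ZEB1, a repressor of epithelial genes, was at 3.86 and 3.78 CPM in DE(a)-DE(b) and at 20.1 and 21.0 CPM in MPS-DE(b) (log2 fold change 2.44 ± 0.28, adjusted p = 9.35e-06). Its relative ZEB2 was at 1.23 and 1.40 CPM against 22.5 and 15.5 CPM (3.86 ± 0.48, adjusted p = 2.33e-05). Both ZEB genes kept their call whichever library was left out. VIM (vimentin) was at 487 and 325 CPM against 1246 and 1088 CPM (1.53 ± 0.32), and that call was lost without DE(a)-DE(b) replicate 2 (1.28). SNAI1 was at 14.7 and 17.3 CPM against 23.6 and 26.0 CPM, which did not pass the test (0.64 ± 0.24, adjusted p = 0.151).

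Of 37 HOX genes tested, 12 (32.4%) rose and 0 fell. They included HOXB2 to HOXB9 and HOXB13, which lie between 48540894 (HOXB2) and 48728750 (HOXB13) on the minus strand of chromosome 17 (GRCh38, GENCODE v44), as well as HOXA2 and HOXA11. Read counts in standard endoderm were at 0 for many members, so fold changes are given as bounds against 3 counts over the 2 libraries. HOXB9 had no read in either DE(a)-DE(b) library and was at 16.2 and 17.6 CPM in MPS-DE(b), at least 211-fold higher (adjusted p = 0.000393). HOXB6 went from 0 in both to 13.5 and 16.7 CPM, at least 188-fold higher (adjusted p = 3.84e-06), and HOXB8 from 0 in both to 10.5 and 13.2 CPM, at least 148-fold. For these 3 genes the MPS-DE(b) replicates were close together. The conditions did not overlap either, but that was required of genes named among the largest changes. HOXB3 was at 0.443 and 0.233 CPM against 48.3 and 58.0 CPM (7.24 ± 0.66), and HOXB2 at 0.197 and 0.174 CPM against 23.3 and 24.7 CPM (6.96 ± 0.69). HOXB4 was at least 117-fold and HOXB5 at least 105-fold higher. The calls of HOXA2 and HOXA11, both under 1 CPM in each of the 4 libraries, were lost whichever library was left out (adjusted p up to 0.189), and that of HOXB13 without DE(a)-DE(b) replicate 2 or MPS-DE(b) replicate 1. The fitted median over the list was 4.91, and 1.96 with the 17 members that had no read in 1 condition set at their bound.

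Among cofactors and regulators of HOX genes, 3 of 10 CDX, MEIS and PBX genes rose (CDX1, CDX2 and MEIS2), none of which kept the call in every leave-out. MEIS2 was at 0.246 and 1.92 CPM against 10.7 and 11.2 CPM (3.38 ± 0.70), a call lost without DE(a)-DE(b) replicate 1 (2.51). CDX1, at 0.148 and 0 CPM against 1.14 and 0.478 CPM, lost it without any 1 of 3. CDX2 had no read in standard endoderm and 1.08 and 0.644 CPM in MPS-DE(b), and its call was lost whichever library was left out.

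**Figure D2:**
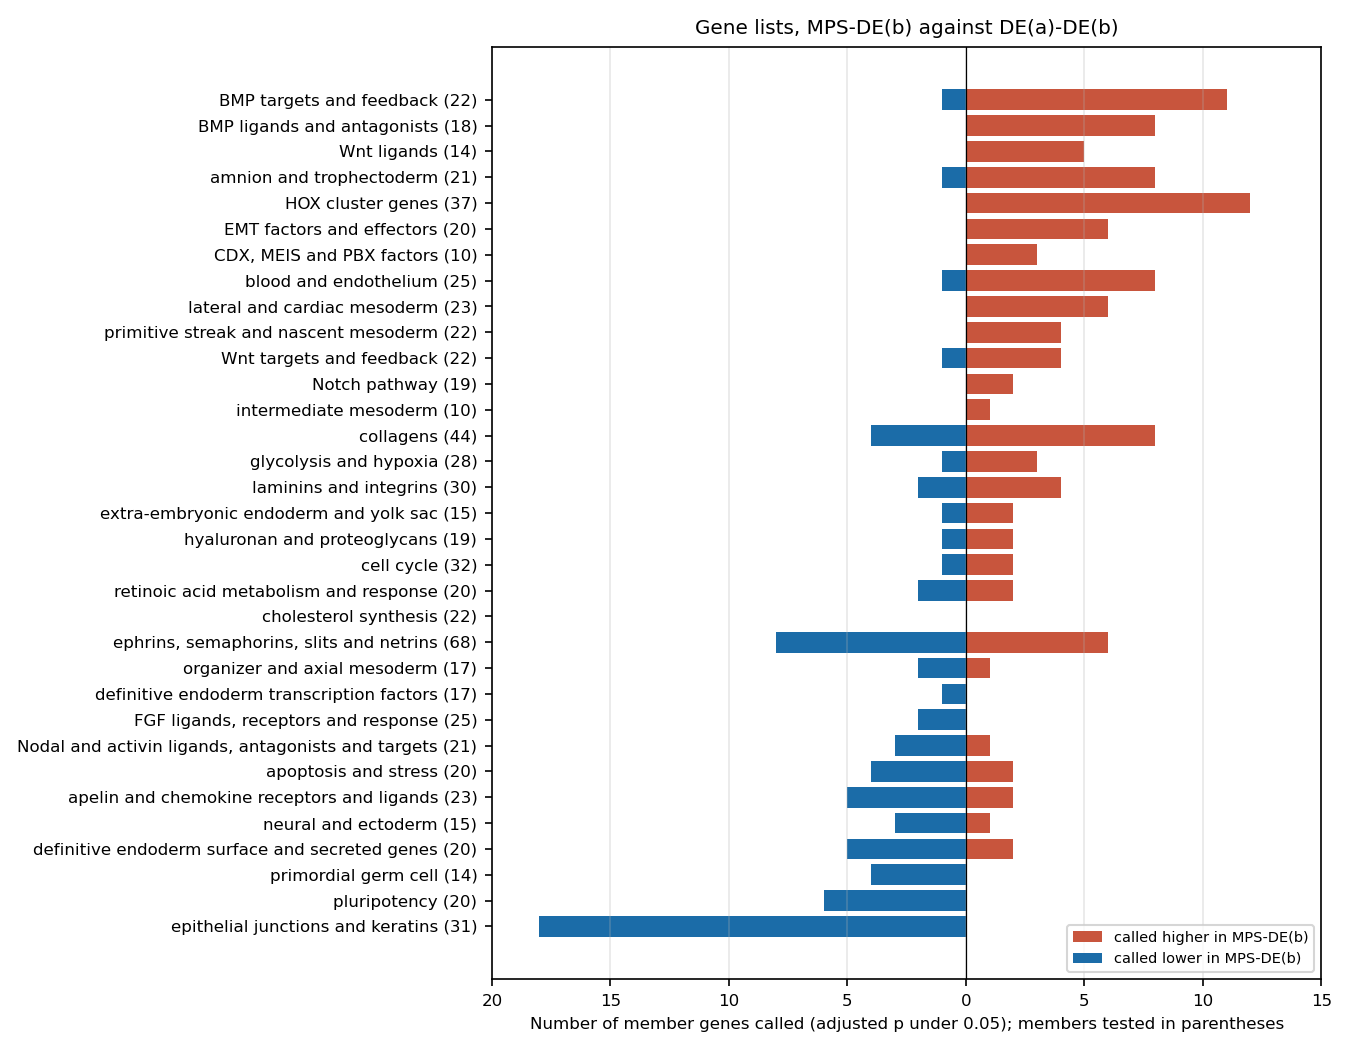
Number of members of each of the 33 gene lists that were called higher (red, to the right) or lower (blue, to the left) in MPS-DE(b) than in DE(a)-DE(b), with the number tested in parentheses. Epithelial genes had 18 members called lower and 0 higher, HOX cluster genes 12 higher and 0 lower, and cholesterol synthesis had none in either direction.

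The blood and endothelium list had 8 of 25 members higher and 1 lower (median 1.06). Among those that rose were glycophorins, sialic acid-rich proteins known from the red cell membrane, of which GYPB and GYPE are near copies on chromosome 4. Aligned stretches of 150 bases from the windows before the starts of GYPB (chr4:144019381-144019530) and GYPE (chr4:143905601-143905750) are printed to show how alike the copies are. Both are on the minus strand of GRCh38.p14 as RefSeq gives them, and the bases that differ are in capitals.
GYPB: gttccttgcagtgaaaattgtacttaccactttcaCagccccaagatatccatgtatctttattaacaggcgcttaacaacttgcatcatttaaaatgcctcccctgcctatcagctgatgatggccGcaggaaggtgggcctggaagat
GYPE: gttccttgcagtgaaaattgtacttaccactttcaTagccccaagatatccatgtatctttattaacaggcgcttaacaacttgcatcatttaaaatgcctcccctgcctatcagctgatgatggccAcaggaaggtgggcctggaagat

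Over 209 aligned bases the windows were identical at 205 (98.1%). Reads of near-identical copies can be divided between them in the authors' counting, so the levels of GYPB and GYPE are not independent of each other. GYPE had no read in either DE(a)-DE(b) library and was at 30.7 and 20.8 CPM in MPS-DE(b), at least 324-fold higher (adjusted p = 3.95e-05). GYPB was at 0.443 and 0.0581 CPM against 48.9 and 20.9 CPM (7.05 ± 0.90). Both had no read at 24 h, in MPS or in DE(a). GYPC, an unrelated sequence on chromosome 2, rose from 25.3 and 19.5 CPM to 58.8 and 63.3 CPM (1.45 ± 0.27).

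Some blood genes of this list were not detected. TAL1, GATA1 and the embryonic globin gene HBZ had no read in any of the 4 libraries, which allows at most 0.148 to 0.193 CPM in a library (3 counts, counting error only). GATA2 was at 0 and 0.349 CPM in DE(a)-DE(b) and at 3.44 and 1.74 CPM in MPS-DE(b), and LMO2 at 0.246 and 0.233 CPM against 3.51 and 4.22 CPM. The call of GATA2 held without each library, and that of LMO2 was lost without either DE(a)-DE(b) replicate (3.85 to 4.12). RUNX1 and TIE1 also rose, and lost the call without 3 and 2 of the libraries (adjusted p up to 0.209). KDR, the VEGF receptor of endothelial precursors, was at 107 and 106 CPM against 50.2 and 57.9 CPM and was not called (-0.97 ± 0.44, adjusted p = 0.257). The 1 member that fell was HHEX, which serves endoderm as well as endothelium.

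BMP receptors were inhibited in both conditions on day 2. Of 22 BMP targets and feedback genes, 11 rose and 1 fell (54.5% called), with a median log2 fold change of 1.1. Among those that rose, GREM1 is counted by 1 of its 2 identifiers and was not called when summed (1.39, edgeR adjusted p = 0.258). CDX2, DLX5, GATA3, TBX3 and BMPER each lost the call without 1 or more libraries. MSX1 was at 0.740 and 0.698 CPM in DE(a)-DE(b) and at 34.2 and 48.1 CPM in MPS-DE(b) (5.83 ± 0.52, adjusted p = 3.89e-07), and MSX2 at 1.28 and 1.92 CPM against 11.5 and 8.66 CPM (2.67 ± 0.40). The immediate BMP targets ID1, ID2 and SMAD6 were not called. ID1 was at 17.7 and 10.1 CPM against 19.4 and 11.2 CPM (0.14 ± 0.49), and ID2 (-0.23 ± 0.28) and SMAD6 (0.34 ± 0.21) did not pass the test either. SMAD7 was the member that fell (-0.72), and that call was lost without DE(a)-DE(b) replicate 2 (-0.43) and without either MPS-DE(b) replicate (adjusted p up to 0.474).

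Of 18 BMP ligands and antagonists, 8 (44.4%) rose and 0 fell. The ligand gene BMP4, which is also the factor added on day 1, was at 16.9 and 13.3 CPM against 228 and 173 CPM (3.74 ± 0.39, adjusted p = 2.22e-06). The antagonist gene NOG was at 0.148 and 0 CPM against 3.61 and 3.69 CPM, a ratio of 45.5 (95% counting interval 15.2 to 224). The BMP modulator BMPER rose from 4.23 and 7.50 CPM to 34.7 and 32.9 CPM (2.54 ± 0.53), a call lost without DE(a)-DE(b) replicate 1 (2.18). GREM1 counts here by 1 of its 2 identifiers, and summed over both it was not called (1.39, adjusted p = 0.258).

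Lateral and cardiac mesoderm genes had 6 of 23 members higher and 0 lower (median 1.29, and 1.08 with members at their bound). HAND1, a factor of lateral and extra-embryonic mesoderm, was at 0 and 0.0583 CPM in DE(a)-DE(b) and at 27.8 and 19.9 CPM in MPS-DE(b), a ratio of 899.2 (95% counting interval 161 to 35562, adjusted p = 6.80e-06). FOXF2 had no read in standard endoderm and was at 2.47 and 2.25 CPM after MPS, at least 29.6-fold higher. ISL1 (0.542 and 0.639 CPM against 0.904 and 1.42 CPM) and FOXF1 (0 and 0 CPM against 1.20 and 0.258 CPM) were not called. Of 21 amnion and trophectoderm genes, 8 rose and 1 fell, but GATA3, TFAP2A, DLX5, TBX3 and WNT6 among them each lost the call without 1 or more libraries (adjusted p of up to 0.352), while GATA2, MSX2 and BMP4 kept it. The lists share members, so their counts are not separate results. GATA2, GATA3, DLX5, TBX3 and MSX2 are also on the list of BMP targets. BMP4 is also on those of BMP ligands and lateral mesoderm, and WNT6 on that of Wnt ligands.

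Streak and nascent mesoderm genes had 4 of 22 members higher and 0 lower, and all 4 kept their call whichever library was left out. APLNR, the apelin receptor of migrating mesoderm, was at 30.6 and 25.6 CPM in DE(a)-DE(b) and at 447 and 357 CPM in MPS-DE(b) (3.84 ± 0.41, adjusted p = 3.74e-06). DLL3, a Notch ligand of presomitic mesoderm, was at 4.66 and 7.79 CPM against 103 and 157 CPM (4.39 ± 0.39). TBX6 was at 2.27 and 1.92 CPM against 9.81 and 8.66 CPM (2.14 ± 0.29). MESP1, a factor of early mesoderm, was at 0.0492 and 0 CPM against 6.36 and 6.01 CPM, a ratio of 232 (95% counting interval 41.2 to 9224). The streak gene TBXT itself was at 22.2 and 23.8 CPM against 11.1 and 13.7 CPM and was not called (-0.89 ± 0.42), nor were EOMES (0.41 ± 0.55) and MIXL1 (0.48 ± 0.40).

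Wnt ligands had 5 of 14 members higher and 0 lower. WNT5A, a ligand of the non-canonical branch, was at 7.14 and 4.24 CPM against 99.6 and 99.2 CPM (4.12 ± 0.31, adjusted p = 4.20e-08), and it was the member of that list whose call held without each library. WNT5B and WNT8A lost the call whichever library was left out, and WNT6 and WNT11 without any 1 of 3 (adjusted p up to 0.332 over these genes). Of 22 Wnt targets, 4 rose and 1 fell. LEF1 was at 1.49 and 1.1 CPM against 11.9 and 9.19 CPM (3.03 ± 0.39). AXIN2, the general feedback target, was at 87.0 and 108 CPM against 68.6 and 86.6 CPM and was not called (-0.33 ± 0.32).

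Of 17 definitive endoderm transcription factors, 1 fell and 0 rose (5.88%, against 5.59% of all genes tested). Besides SOX17 (0.30 ± 0.86), the levels of GATA6 (465 and 604 CPM against 606 and 791 CPM), LHX1 (235 and 382 CPM against 452 and 598 CPM) and GSC (83.5 and 108 CPM against 56.2 and 60.5 CPM) were not called. FOXA1 was at 5.18 and 7.15 CPM against 0.361 and 0.902 CPM (-3.28 ± 1.13, edgeR adjusted p = 0.0999). FOXA3 was at 27.7 and 20.8 CPM against 10.5 and 16.7 CPM (-0.83 ± 0.28, edgeR adjusted p = 0.0940). Neither was called, and both were without overlap, as were 42.6% of all genes tested. At an unadjusted p under 0.05, 5 members were lower and 1 was higher. HHEX was the one that fell, from 62.5 and 84.1 CPM to 13.9 and 19.5 CPM (-2.13 ± 0.42, adjusted p = 0.00390), and it lost the call without DE(a)-DE(b) replicate 2 or MPS-DE(b) replicate 1 (adjusted p up to 0.0850).

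Of 20 endoderm surface and secreted genes, 5 fell and 2 rose (35%). CXCR4, the chemokine receptor by which endoderm is commonly sorted, was at 168 and 154 CPM in DE(a)-DE(b) and at 18.6 and 29.7 CPM in MPS-DE(b) (-2.74 ± 0.55, adjusted p = 0.00309), with the call lost without MPS-DE(b) replicate 1 (-2.43). KIT was at 181 and 179 CPM against 43.9 and 64.8 CPM (-1.73 ± 0.49, adjusted p = 0.0380), a call lost whichever library was left out (-2.02 to -1.47). For both genes the libraries of the 2 conditions did not overlap, as for 42.6% of all genes tested. The Nodal antagonist gene CER1 was at 4296 and 3886 CPM against 6006 and 5343 CPM and was not called (0.48 ± 0.54). RSPO3, at 0.197 and 0.523 CPM against 15.9 and 16.3 CPM (5.51 ± 0.66), was the clearest rise on this list.

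Among 21 ligands, antagonists and targets of Nodal and activin signaling, 3 fell and 1 rose. LEFTY1, a feedback inhibitor of Nodal, was at 1137 and 1152 CPM against 226 and 314 CPM (-2.08 ± 0.28, adjusted p = 8.21e-05). LEFTY2 was at 1134 and 1400 CPM against 371 and 420 CPM (-1.68 ± 0.36), a call lost without any 1 of 3 libraries (adjusted p up to 0.0953). NODAL was at 229 and 182 CPM against 126 and 114 CPM and was not called (-0.77 ± 0.34).

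Pluripotency genes had 6 of 20 members lower and 0 higher (30.0%). NANOG was at 104 and 87.1 CPM in standard endoderm and at 16 and 7.68 CPM in MPS-DE(b) (-3.0 ± 0.49, adjusted p = 0.000491). POU5F1, summed over its 4 identifiers, was at 449 and 370 CPM against 160.8 and 123.1 CPM (-1.51, adjusted p = 9.78e-06). SOX2 was at 47.3 and 37.9 CPM against 7.75 and 4.58 CPM (-2.77 ± 0.69), a call lost whichever library was left out (-3.21 to -2.43). PRDM14, FOXD3 and CDH3 were the other members that fell. LIN28A, which was not called, was at 1266 and 1115 CPM against 1101 and 1161 CPM (-0.07 ± 0.16), and TDGF1 (-0.26 ± 0.38) and DNMT3B (-0.57 ± 0.17, adjusted p = 0.0566) were not called. In the primordial germ cell list, 4 of 14 fell (PRDM14, NANOG, LAMA4, ALPL). PRDM14 lost the call without MPS-DE(b) replicate 2 (-1.43) and LAMA4 without any 1 of 3 libraries (adjusted p up to 0.0912).

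Matrix genes moved in both directions. Of 44 collagens, 8 rose and 4 fell. COL5A2, a regulator of fibril diameter, was at 530 and 600 CPM in DE(a)-DE(b) and at 2210 and 2230 CPM in MPS-DE(b) (1.98 ± 0.30, adjusted p = 0.000202), and COL1A2 at 290 and 176 CPM against 903 and 709 CPM (1.80 ± 0.26). In the basement membrane network, COL4A4 fell from 6.20 and 10.6 CPM to 0.663 and 0.902 CPM (-3.42 ± 0.45). HAPLN1, which links hyaluronan to proteoglycans, was at 2.29 and 0.988 CPM against 405 and 279 CPM (7.69 ± 0.70, adjusted p = 3.89e-07). LUM, a small leucine-rich proteoglycan, had no read in standard endoderm and was at 17.4 and 7.42 CPM in MPS-DE(b), at least 157-fold higher. FN1 (fibronectin) was at 843 and 1067 CPM against 1159 and 1313 CPM and was not called (0.38 ± 0.28).

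Of 68 ephrin, semaphorin, slit and netrin genes with their receptors, 6 rose and 8 fell. PLXNA4, a semaphorin receptor, was at 76.6 and 109 CPM against 8.99 and 15.9 CPM (-2.90 ± 0.48), and the ligand gene SEMA3A at 43.4 and 34.4 CPM against 18.4 and 10.001 CPM (-1.44 ± 0.24). The receptors NRP1 (20.9 and 17.5 CPM against 127 and 106 CPM) and UNC5C (1.48 and 3.78 CPM against 25.5 and 18.6 CPM) rose by 2.61 ± 0.36 and 3.09 ± 0.55. Of 28 glycolysis and hypoxia genes, 3 rose and 1 fell (14.3% called, median 0.13). On that list VEGFA fell from 202 and 306 CPM to 50.7 and 71.1 CPM (-2.06 ± 0.32). The glycolytic gene PKM rose from 1813 and 1565 CPM to 3709 and 3779 CPM (1.15 ± 0.21). Of 22 cholesterol synthesis genes, 0 were called by edgeR and by DESeq2 (1 at an unadjusted p under 0.05, median -0.08). The cell cycle list had 2 higher and 1 lower of 32 (9.38% called, against 5.59% of all genes tested, median 0.19). TYMS, CCND1 and MCM6, the 3 called, each lost the call without 3 or more libraries.

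Of 19 Notch pathway genes 2 rose (DLL3 and JAG1, 10.5%) and of 25 FGF genes 2 fell (FGF4 and FGF19, 8%), near the 5.59% called over all genes tested. Of 17 organizer genes 1 rose (NOG) and 2 fell (FOXD3 and SIX3), which is 17.6%, with a median log2 fold change of -0.89. At an unadjusted edgeR p under 0.05, 11 of the organizer genes were lower and 1 was higher. FOXD3, a factor of the epiblast and of neural crest, was at 3.91 and 3.37 CPM in DE(a)-DE(b) and at 0.12 and 0 CPM in MPS-DE(b). Of 20 retinoic acid genes 2 rose and 2 fell, among them CRABP1, a binding protein for retinoic acid, at 39.6 and 22.4 CPM against 6.43 and 5.35 CPM (-2.39 ± 0.39, adjusted p = 0.000420). Of 30 laminins and integrins 4 rose and 2 fell, and ITGB2, known as an integrin of leukocytes, was at 0.246 and 0.465 CPM against 5.19 and 4.97 CPM (3.83 ± 0.60). Of 20 genes of apoptosis and stress 2 rose and 4 fell, and the stress factor gene ATF3 was at 32.4 and 44.5 CPM against 11.4 and 12 CPM (-1.71 ± 0.34). Of 23 apelin and chemokine genes 2 rose (APLNR and IGF2) and 5 fell (CXCR4, KIT, VEGFA, CXCL12 and PDGFA), which is 30.4%. CXCL12, the ligand of CXCR4, was at 14.4 and 8.26 CPM against 5.67 and 3.68 CPM (-1.27 ± 0.29), a call lost without DE(a)-DE(b) replicate 1 or MPS-DE(b) replicate 2 (adjusted p up to 0.194). IGF2 lost the call whichever library was left out and PDGFA without 3 of them (adjusted p up to 0.281). Of 15 neural and ectoderm genes 1 rose (DLX5) and 3 fell (SOX2, SIX3 and SOX10), and each of these 4 lost the call without 3 or more libraries (adjusted p up to 0.417). Of 15 genes of extra-embryonic endoderm and yolk sac 2 rose (LAMA1 and SPARC) and 1 fell (APOA2), which is 20%. Of 10 intermediate mesoderm genes 1 rose (GATA3), which is 10%, against 5.59% of all genes tested. Each of these 4 lost the call without 2 or 3 of the libraries (adjusted p up to 0.191). Over all 33 lists, 663 distinct genes were tested and 154 called, of which 70 kept the call whichever of the 4 libraries was left out.

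At 24 h, before DE(b) medium, MPS and DE(a) cells differed in 1605 genes (8.97%), 1005 higher (5.62%) and 600 lower (3.35%) in MPS. These are other libraries than those at 48 h, so the overlap can be counted. Of the 460 genes higher at 48 h, 204 (44.3%, and 20.3% of the 1005) were also higher at 24 h and 10 were lower. Of the 540 genes lower at 48 h, 142 (26.3%, and 23.7% of the 600) were also lower at 24 h and 25 were higher. For 652 genes (3.64%) the difference at 48 h departed from that at 24 h in a direct test of the interaction, 232 (1.30%) upward and 420 (2.35%) downward.

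The epithelial difference was not present at 24 h. At that time, 5 of the 31 genes were higher in MPS (CDH1, DSP, PKP2, KRT8, KRT19) and 1 was lower (ESRP2), and 18 of 31 were called lower in the interaction, a set that leaves out ESRP2 and MARVELD3 and adds DSP and KRT19. CDH1 was at 169 and 172 CPM in DE(a) and at 264 and 362 CPM in MPS at 24 h (0.87 ± 0.26, adjusted p = 0.0348, lost without any 1 of 3 libraries, with 0.65 to 1.08), and its interaction was -3.48 ± 0.38 (adjusted p = 1.32e-05). CDH3 was at 166 and 129 CPM against 136 and 143 CPM at 24 h (-0.08 ± 0.19), with an interaction of -2.62 ± 0.28. PKP2 likewise turned, from 1.36 ± 0.22 at 24 h to -1.01 ± 0.22 at 48 h. ZEB1 was not called at 24 h (0.60 ± 0.28) and its interaction was 1.83 ± 0.39 (adjusted p = 0.00923), a call lost without DE(a)-24h replicate 2 or MPS-24h replicate 2 (1.42 to 2.37 over all leave-outs). SNAI1 was already higher at 24 h, with 35.3 and 26.7 CPM in DE(a) and 134 and 112 CPM in MPS at 24 h (1.99 ± 0.24, adjusted p = 7.29e-06). So was ZEB2, at 8.19 and 9.29 CPM in DE(a) and 61.9 and 38.8 CPM in MPS (2.53 ± 0.40, adjusted p = 0.000174). The interaction of ZEB2 was not called (1.33 ± 0.62).

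**Figure D3:**
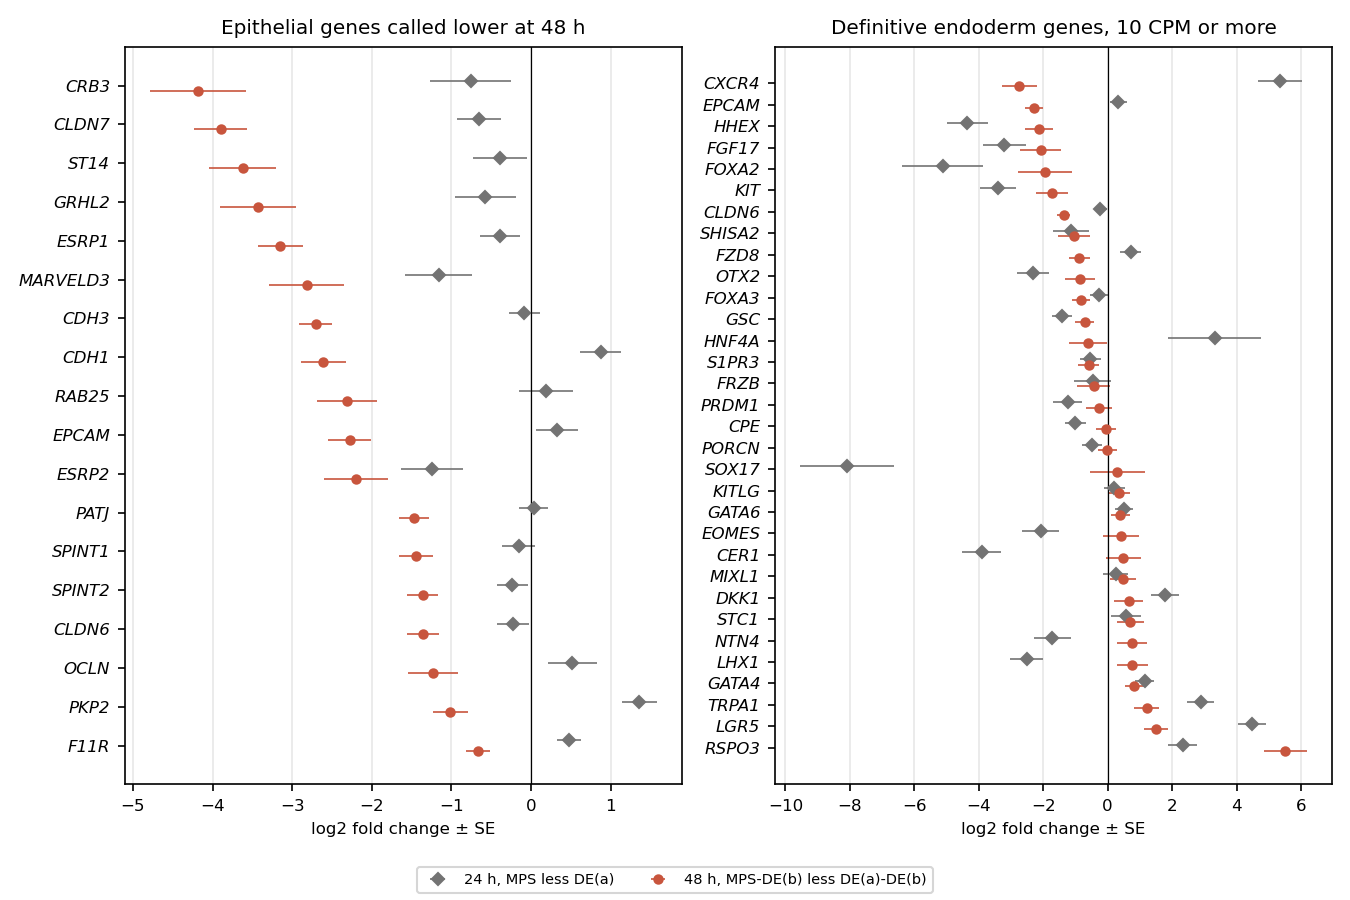
Log2 fold change ± SE of MPS less DE(a) at 24 h (gray diamonds) and of MPS-DE(b) less DE(a)-DE(b) at 48 h (red circles), for the 18 epithelial genes called lower at 48 h (left) and for definitive endoderm genes with 10 CPM or more (right). The epithelial genes lie to the left at 48 h and around 0 at 24 h, where PKP2 is farthest to the right at 1.36, and SOX17 moves from -8.08 at 24 h to 0.30 at 48 h while CXCR4 moves from 5.34 to -2.74.

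Among endoderm genes, differences at 24 h were seen in both directions. At that time, 8 of 17 endoderm transcription factors were lower in MPS and 1 was higher. SOX17 was at 91.7 and 24.3 CPM in DE(a) and at 0.260 and 0.147 CPM in MPS, and its interaction was 8.38 ± 1.73 (adjusted p = 0.00883), a call lost without either MPS-24h replicate (adjusted p up to 0.0655). LHX1 and CER1 also had interactions above 0, of 3.28 ± 0.69 and 4.39 ± 0.80, and the one of LHX1 was lost without DE(a)-24h replicate 1 or MPS-24h replicate 2 (2.74 to 4.11 over all leave-outs). CXCR4 was at 1.76 and 0.805 CPM in DE(a) and at 69.4 and 35 CPM in MPS at 24 h, the opposite order to that at 48 h (interaction -8.08 ± 0.88, adjusted p = 1.32e-05). That call held without each of the 8 libraries. FOXA1, a pioneer factor related to FOXA2, also had an interaction under 0 (-6.86 ± 1.65, adjusted p = 0.0205), with 0.259 and 0.161 CPM in DE(a) and 1.89 and 3.29 CPM in MPS at 24 h, and the call was lost without any 1 of 6 libraries (adjusted p up to 0.112). Of the 20 surface and secreted genes, 5 were higher and 3 lower in MPS at 24 h.

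The HOX difference was present at both times. At 24 h, 21 of the 37 were higher in MPS and 0 lower. In the interaction edgeR called 0, with 0 at an unadjusted p under 0.05, and DESeq2 called 1, but members without a read in a condition leave that difference undetermined. HOXB6 was at 71.4 and 69.3 CPM in MPS at 24 h and without a read in DE(a). LGR5, a Wnt target, was at 185 and 163 CPM in MPS and at 5.53 and 10.1 CPM in DE(a) at 24 h, and at 177 and 145 CPM against 43.8 and 69.8 CPM at 48 h, with an interaction of -2.97 ± 0.55 (adjusted p = 0.00303). MSGN1, a factor of presomitic mesoderm at 52.5 and 60.4 CPM in MPS at 24 h, was at 0.0602 and 0.258 CPM in MPS-DE(b).

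MPS-DE(b) differed from APS-DE(b) in 235 genes (1.31%), 162 higher (0.905%) and 73 lower (0.408%), and from PPS-DE(b) in 1062 genes (5.93%), 480 higher (2.68%) and 582 lower (3.25%). These comparisons share the MPS-DE(b) libraries with the one above. Against APS-DE(b), 9 of 37 HOX genes were higher and 9 of 31 epithelial genes lower, but of the epithelial calls those of CLDN6, CLDN7, CRB3, RAB25, PATJ and SPINT2 were lost whichever library was left out (adjusted p up to 0.397) and that of ST14 without any 1 of 3 (up to 0.564). HOXB9 was at 0 and 0.0493 CPM in APS-DE(b), 16.2 and 17.6 CPM in MPS-DE(b) and 149 and 117 CPM in PPS-DE(b). ESRP1 was at 73.6 and 71.2 CPM in APS-DE(b), 17.7 and 17.8 CPM in MPS-DE(b) and 37.5 and 42.2 CPM in PPS-DE(b), so MPS-DE(b) was lower than APS-DE(b) (-2.03 ± 0.27, adjusted p = 0.000226) and than PPS-DE(b) (-1.20 ± 0.27, adjusted p = 0.00760, lost without any 1 of 3 libraries, with -1.28 to -1.12).

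Against PPS-DE(b), 14 of the 31 were lower and 0 higher, among them CDH1 (105 and 94.8 CPM in PPS-DE(b), -2.66 ± 0.28), CDH3 (54.6 and 55.4 CPM, -1.78 ± 0.20) and ST14 (6.87 and 8.88 CPM, -3.26 ± 0.42). The epithelial genes called lower against both APS-DE(b) and PPS-DE(b) were 5, namely CDH3, CLDN7, ESRP1, RAB25 and ST14. Of the HOX genes, 21 of 37 were lower in MPS-DE(b) than in PPS-DE(b) and 0 higher, and the call of HOXB9 (-3.01 ± 0.68) was lost without any 1 of 3 libraries (-3.18 to -2.83). WNT5A (860 and 687 CPM in PPS-DE(b), -3.0 ± 0.28), STAB2 (179 and 166 CPM, -2.71 ± 0.40) and GREB1L (269 and 215 CPM, -3.02 ± 0.44) were likewise lower than in PPS-DE(b). LEFTY1 stood between the neighbors, at 812 and 952 CPM in APS-DE(b) and 55.8 and 88.9 CPM in PPS-DE(b), and differed from both (-1.71 ± 0.28 and 1.86 ± 0.28), the first of these lost without MPS-DE(b) replicate 1 (-1.5). ZEB1, at 13.2 and 12.1 CPM in APS-DE(b) and 17.7 and 20.4 CPM in PPS-DE(b), was called against neither (0.69 ± 0.26 and 0.08 ± 0.26). ZEB2 was at 4.97 and 2.91 CPM in APS-DE(b) and 47.6 and 43.3 CPM in PPS-DE(b). In MPS-DE(b) it was higher than in APS-DE(b) (2.27 ± 0.42) and lower than in PPS-DE(b) (-1.29 ± 0.38, adjusted p = 0.0490).

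**Figure D4:**
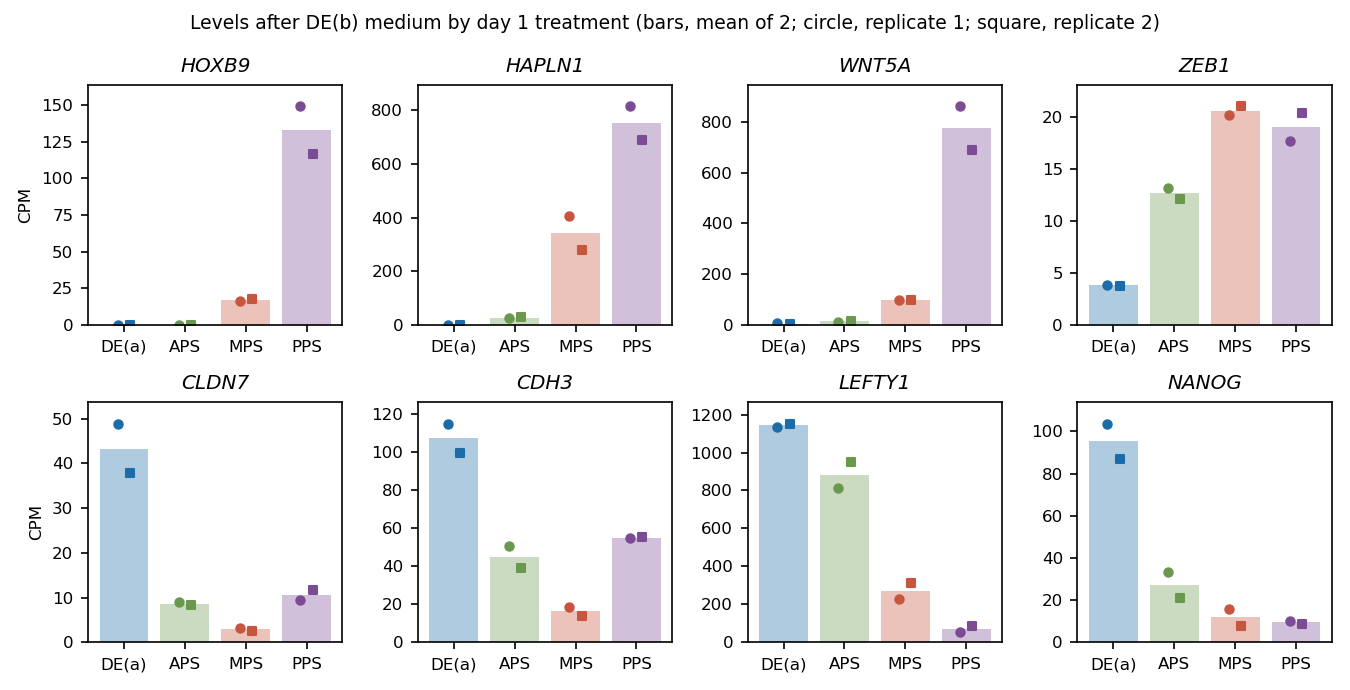
CPM of 8 genes after DE(b) medium, by day 1 medium, with bars at the mean of the 2 libraries, circles for replicate 1 and squares for replicate 2. HOXB9, HAPLN1 and WNT5A are highest after PPS, CLDN7 and CDH3 are lowest after MPS, and LEFTY1 and NANOG are highest after DE(a), with LEFTY1 at 226 and 314 CPM after MPS.

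Against APS-DE(b), the largest rises were HOXB6, HOXB8 and HOXB9 and the largest falls PRSS2 (-3.56 ± 0.59), CXCR4 (-2.26 ± 0.54) and PLXNA4 (-2.16 ± 0.46). The calls of CXCR4 and PLXNA4 were lost whichever library was left out (adjusted p up to 0.396), that of PRSS2 without either MPS-DE(b) replicate (-3.57 to -3.55), and that of HOXB9 without either APS-DE(b) replicate. Against PPS-DE(b), MPS-DE(b) had more ITPRID1 (20.1 and 15.7 CPM against 0.193 and 1.70 CPM, lost without PPS-DE(b) replicate 1 at 3.36), VIPR2 (24.0 and 13 CPM against 1.01 and 0.909 CPM) and VWF (28.1 and 47.1 CPM against 1.30 and 3.77 CPM), and less MSGN1. The other 2 large falls against PPS-DE(b), in PPP1R10 and in 1 identifier of POU5F1, were not called when identifiers of a gene were summed (0.17 and -0.11).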

How the data were processed

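Bulk RNA of ESI017 cultures was sequenced in 34 libraries of 17 conditions with 2 replicates each. Per the labels and the submitters' processing notes, the authors quantified reads with Salmon 1.10.2 in quasi-mapping mode with sequence and GC bias correction and summed transcripts to genes (GRCh38), and the deposited values are estimated counts per gene, not normalized. The annotation release is not given in the sources used here. Estimated counts were rounded and tested with edgeR 4.0.16 (limma 3.58.1, R 4.3.3): TMM normalization, filterByExpr by condition, 1 mean per condition over all 34 libraries, the quasi-likelihood test and Benjamini-Hochberg adjustment at 0.05. All adjusted p-values are from edgeR unless DESeq2 (1.42.0) is named. On simulated counts for 17895 genes, 155 of 200 changed genes were recovered, with 93% of those of log2 size 2 and 62% of those of size 1. Among unchanged genes 8 were called. Counts were drawn with the spread fitted to these data. The changed genes were picked from genes well expressed in DE(a)-DE(b), so the recovery does not cover genes with few or no reads there.

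CPM is the count scaled to a library total of 1000000. With 2 libraries a condition, an exact permutation test of a single gene cannot pass 0.05, so calls rest on the spread pooled over genes and conditions. The study's supplement calls the 2 libraries of a condition biological replicates, without saying how they were separated. Fold bounds against a condition without reads use 3 counts over that condition, and ratios against 1 to 3 counts have exact 95% counting intervals that cover counting error only. The genes named were the 15 largest changes in each direction among called genes. Their mean had to reach 10 CPM in either condition, and the conditions could not overlap. Also named were the 3 largest by the same rule in each other comparison, SOX17, FOXA2, CDH1 and CDH2, and members of the 33 lists. Some genes that this rule names are not reported here. The members and lists were chosen with earlier results of these data known. Summing identifiers that share a symbol was added after seeing the data. Alternatives left out each library, and changed the normalization, filter, tool, fold threshold, block and libraries fitted.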

Additional observations from a re-analysis of the deposited data

Results flagged for a closer look

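The difference between MPS and DE(a) cells was tested against itself across the change of medium, as the difference at 48 h less that at 24 h, and 652 genes passed edgeR's quasi-likelihood test. The 3 largest upward values on the log2 scale belonged to PRRC2A (15.33), SOX17 (8.38) and RFPL2 (7.54), and the 3 largest downward to CXCR4 (-8.08), TTC29 (-6.24) and CCDC85A (-6.07). The PRRC2A value is of 1 of 6 identifiers of that gene, and summed over them it was 0.07 (adjusted p = 0.945). DESeq2 did not call RFPL2 (adjusted p = 0.132). TTC29 was at 61.7 and 69.6 CPM in MPS at 24 h and at 0.181 and 0.0644 CPM in MPS-DE(b), and CCDC85A was at 16.8 and 13.6 CPM and at 0.181 and 0.773 CPM.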

How the results depend on the processing

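The counts of genes called moved with several choices. Requiring at least a 1.5-fold change gave 413 genes for MPS-DE(b) against DE(a)-DE(b), 709 at 24 h, 274 for the 48 h less 24 h difference, 86 against APS-DE(b) and 332 against PPS-DE(b). With no filter on low counts these were 1713, 1314 (48 h less 24 h), 769 (APS-DE(b)) and 1713 (PPS-DE(b)). DESeq2 gave 1063 for the 48 h less 24 h difference and 435 against APS-DE(b). Fitting only the libraries compared gave 548 against DE(a)-DE(b) and 1736 against PPS-DE(b). Leaving out 1 library gave 479 to 781 genes against DE(a)-DE(b), 928 to 1167 at 24 h, 339 to 533 for the 48 h less 24 h difference, 58 to 104 against APS-DE(b) and 321 to 612 against PPS-DE(b). The lowest of these were without MPS-DE(b) replicate 2, MPS-24h replicate 1, MPS-DE(b) replicate 2, APS-DE(b) replicate 2 and PPS-DE(b) replicate 1. The share of higher calls moved most against APS-DE(b), from 58.4% to 89.5% over the other settings and from 74.1% to 91.3% with 1 library left out. The cause was not tested.

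Among lists, HOX genes had 21 calls with no filter, and lateral and cardiac mesoderm had 11. BMP ligands and antagonists had 5 at 1.5-fold and 5 with only the libraries compared, and 5 to 7 with 1 library left out. BMP targets had 6 with only the libraries compared and 7 to 9 with 1 library left out, the fewest without DE(a)-DE(b) replicate 1. PPP1R10 changed sign when its identifiers were summed, to 0.14 against DE(a)-DE(b) and 0.17 against PPS-DE(b).

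A replicate block gave 1397 genes against DE(a)-DE(b), among them all 1000 with the same direction. Libraries of replicate 1 and of replicate 2 were deposited as separate sets, and the labels give the numbers no further meaning. Correlations of deviations were 0.548 for MPS-DE(b) with DE(a)-DE(b) and 0.277 to 0.457 for the other comparisons. Over all pairs of conditions they ran from -0.376 to 0.725, with a median of 0.255. The numbers were not established as pairs, and the main test had no block. Of the 30 genes with the largest changes, 27 to 29 kept the call with 1 library left out. Depth limits what can be said of genes near 3 counts per library.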
